A study of Mus musculus with 2 samples.

Results

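Genes of sterol and fatty acid synthesis were followed across the cells of 2 single-cell libraries from mouse hair follicles. The 31 members were found by gene symbol among the 31053 features of the deposited matrices, and all 31 were present once. They form a sterol branch of 20 genes and a fatty acid branch of 11. Both libraries, replicates 1 and 2, hold wild-type cells of strain C57BL/6;CD1 from skin at postnatal day 32, in anagen, when follicles grow. Flow cytometry selected cells positive for CD34, a surface protein of follicle stem cells, and for H2BGFP, a histone fused to a green fluorescent protein and expressed from the keratin 14 promoter. The libraries are replicates of 1 group, and all comparisons below are between kinds of cells within them. The labels do not state whether the libraries are from separate or pooled animals. The p-values measure only how far differences between kinds of cells varied between these 2 libraries, a spread that may be technical.

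Cells make cholesterol from acetyl-CoA by way of mevalonate, squalene and lanosterol, and fatty acids from the same precursor through malonyl-CoA. The transcription factors encoded by Srebf2 and Srebf1 switch on the sterol and the fatty acid genes, respectively, with overlap, and are held back in the endoplasmic reticulum by INSIG proteins when sterols are plentiful. In skin these lipids go into cell membranes, the water barrier and sebum, the secretion of the sebaceous gland, which opens into the upper hair follicle.

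After filters for at least 1000 detected genes and at most 10% mitochondrial UMIs (unique molecular identifiers, the counted molecules), 3918 cells of replicate 1 and 3041 of replicate 2 were kept, with medians of 9955 and 9797 UMIs. The libraries share 11 cell barcodes, 3 of them among the cells kept. Keratinocytes were assigned to follicle states by marker genes, none of them a member. Each state is called by 1 of its markers (Krt24, Nppc, Wfdc18, Fgf5, Edn2 or Krtdap). It requires a summed marker level at least 2 times the average keratinocyte. These 6 states took 1819 (48.2%) of the keratinocytes of replicate 1 and 1632 (55.3%) of those of replicate 2. The states were not equally filled: the non-cycling Krt24 state held 38 and 209 cells, the Krtdap state 54 and 123, and the Wfdc18 state 412 and 143, in replicates 1 and 2. Cd34, the gene of the sorting marker, was lowest in the Wfdc18 state among the 6, at 18.3 and 21.2 CPM (UMIs of a gene scaled to a common total of the summed cells), against 62.7 or more in every library of the other 5. Summed markers of fibroblasts, immune cells, endothelium and melanocytes stayed at or under 22.3 CPM in the non-cycling cells of all 6 states.

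Over all keratinocytes, the mean level of the 2 libraries was highest among sterol genes for Hmgcs1, which makes HMG-CoA (86.6 and 95.0 CPM), and Fdps, which makes farnesyl diphosphate (61.9 and 119 CPM). It was lowest for Mvd, mevalonate diphosphate decarboxylase (7.11 and 9.14 CPM). In the fatty acid branch Scd2, a stearoyl-CoA desaturase, was highest at 47.4 and 58.9 CPM, and Fads2, which places a double bond in polyunsaturated fatty acids, lowest at 8.21 and 10.8 CPM. Each UMI comes from the 3′ end of 1 transcript, so gene length does not enter these levels. Some members differed between the libraries in nearly every kind of cell. Fdps was higher in replicate 2 in 13 of 13 matched sums of cells and Ebp, a sterol isomerase, in 12 of 13, whereas Sqle, squalene epoxidase, was higher in replicate 1 in 12 of 13. The fits therefore carried a term for the library.

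Promoter stretches are shown for 4 sterol members, as SREBP proteins are known to act on such promoters beside the factor NF-Y. Hmgcs1 and Mvk were called in the Krt24 state and in mitotic cells, Nsdhl in the Krt24 state and Srebf2 in mitotic cells. The 4 do not stand for the called genes, since Hmgcs1 and Srebf2 are the only members with TCACCCCA in their windows. Sequences are from RefSeq, build GRCm38.p6, plus strand, and lie 5′ of the annotated starts. Capitals mark the sterol response element TCACCCCA (with a following C where it extends to TCACNCCAC) and the CCAAT box bound by NF-Y, on either strand (ATTGG is its reverse). Hmgcs1 (chr13:119690171-119690350) carries both, Srebf2 (chr15:82147089-82147180) the core element and 1 box, Mvk (chr5:114444089-114444268) 5 boxes and Nsdhl (chrX:72918341-72918520) 2 boxes.
Hmgcs1: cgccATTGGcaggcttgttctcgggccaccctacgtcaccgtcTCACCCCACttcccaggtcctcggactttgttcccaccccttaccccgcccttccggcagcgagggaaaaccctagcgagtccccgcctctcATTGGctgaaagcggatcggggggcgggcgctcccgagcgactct
Srebf2: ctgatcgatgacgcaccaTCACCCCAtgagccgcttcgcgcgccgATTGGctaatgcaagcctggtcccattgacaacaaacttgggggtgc
Mvk: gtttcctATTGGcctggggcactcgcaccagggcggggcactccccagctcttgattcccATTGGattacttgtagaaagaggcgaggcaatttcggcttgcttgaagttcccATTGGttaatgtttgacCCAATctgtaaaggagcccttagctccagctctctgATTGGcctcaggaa
Nsdhl: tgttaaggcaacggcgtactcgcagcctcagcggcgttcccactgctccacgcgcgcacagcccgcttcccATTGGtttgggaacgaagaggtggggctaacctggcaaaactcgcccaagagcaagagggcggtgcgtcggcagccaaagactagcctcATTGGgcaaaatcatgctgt

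In windows from 250 bases before to 50 after the start, a CCAAT box on either strand was found in 15 of the 16 sterol members with a RefSeq window (93.8%) and in 5 of 8 fatty acid members (62.5%). Among the 7683 genes of the fit with a window, 43.2% held one. The Sp1 box GGGCGG was in 15 of 16 sterol and 4 of 8 fatty acid members, against 73% of those genes. TCACCCCA was in the Hmgcs1 and Srebf2 windows alone among the members, against 1.77% of those genes. The E-box CACGTG was in 4 of 16 sterol members and 1 of 8 fatty acid members, against 12.3%. These matches describe letters in the windows and do not show binding.

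Most members differed among the 6 non-cycling states. UMIs were summed per library and state, and edgeR's quasi-likelihood test for any difference among the states, adjusted over 9800 genes, passed at 0.05 for 15 of 20 sterol genes and 7 of 11 fatty acid genes; 46.2% of all genes tested passed. The sterol genes that did not pass were Lss, Hsd17b7, Mvd, Acat2 and Insig1, and the fatty acid genes were Scd2, Acaca, Acly and Elovl6. The smallest adjusted p-values were those of Fads2 (3.1e-11), Fads1 (1.3e-09) and Hmgcs1 (4.1e-10). Summed over the 20 genes, the sterol branch ranged from 1103 CPM in the Krt24 state of replicate 2 (737 in replicate 1) to 471 in the Nppc state of replicate 2 (538 in replicate 1). The Wfdc18 state had 703 and 760 CPM, the Krtdap state 657 and 675, the Edn2 state 570 and 543, and the Fgf5 state 500 and 477. The summed fatty acid branch was flatter, between 200 and 312 CPM in all 12 sums, and was highest in the Fgf5 state at 300.5 and 312 CPM. Fads1 supplied 58.7 and 53.2 CPM of these Fgf5 sums, and Fads2 31.6 and 34.5 CPM. The order of the states by summed level thus differed between the branches, and for the fatty acid branch it rested in part on these genes. In what follows, each state is compared with the mean of the other 5, so these comparisons share cells and are not independent.

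**Figure D1:**
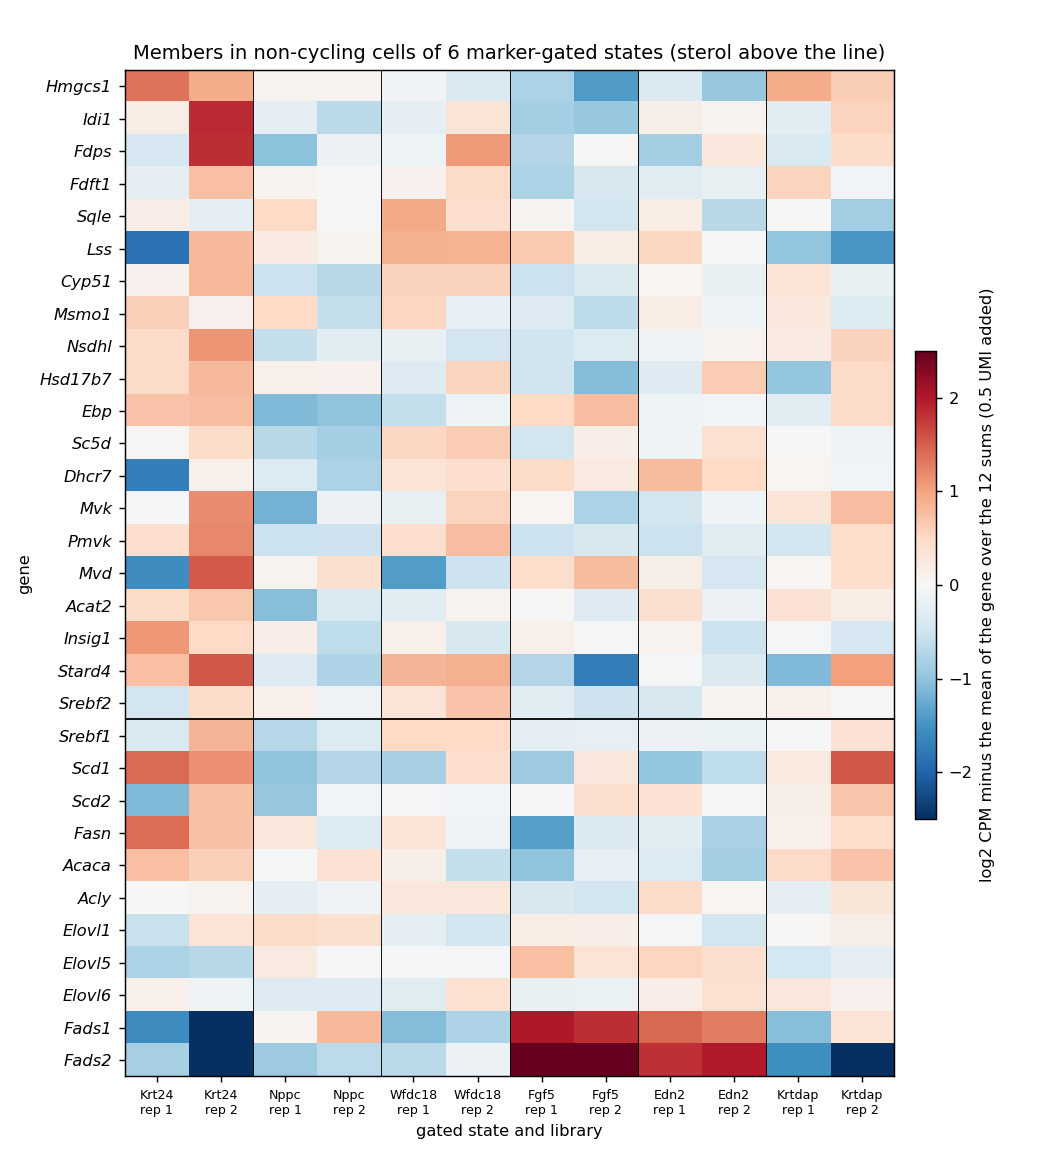
Each cell of the map is a member's log2 CPM in the non-cycling cells of 1 state and library, minus that gene's mean over the 12 sums, with 0.5 UMI added before the log; red is above and blue below the mean, and the colour scale ends at ±2.5. Fads1 and Fads2 are red in both libraries of the Fgf5 and Edn2 states, and the Krt24 state of replicate 2 is red for most sterol genes while replicate 1, with 38 cells, is mixed.

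The Krt24 state had the highest level of the sterol branch. Here 11 of 20 sterol genes were higher, none lower, with a median log2 fold change of 0.86; of all genes tested, 11.7% were higher and 11.2% lower, with a median of 0.01. From the CPM of 1 library, the sterol median was 0.31 in replicate 1, where Lss, Dhcr7, Mvd, Srebf2, Fdft1 and Sqle were below 0, and 0.88 in replicate 2. At the entry to the pathway, Hmgcs1 read 203 and 152 CPM in replicates 1 and 2, against 29.9 to 152 CPM in the other states. Its log2 fold change was 1.40 ± 0.15 (SE; edgeR adjusted p = 2.2e-08), with 1.40 in replicate 1 alone and 1.33 in replicate 2 alone. Ebp read 63.3 and 67.5 CPM, a change of 0.86 ± 0.18. Insig1, which retains the SREBP complex, read 26.7 and 18.5 CPM, a change of 0.91 ± 0.31. Both read alike in the 2 libraries, but replicate 1 counted only 19 UMIs of Ebp and 8 of Insig1.

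For other steps the Krt24 state differed between libraries. Idi1, the isomerase of isopentenyl diphosphate, read 33.3 CPM in replicate 1 and 111 in replicate 2, and its change of 1.73 ± 0.23 was 0.48 in replicate 1 alone and 1.99 in replicate 2 alone. Fdps (1.34 ± 0.17) was 0.20 and 1.52 in the libraries taken singly, Cyp51, which demethylates lanosterol (0.86 ± 0.20), 0.13 and 1.01, and Mvk, mevalonate kinase (1.06 ± 0.28), 0.26 and 1.13. Fdft1, squalene synthase, was called higher (0.65 ± 0.23) but fell by 0.18 in replicate 1 alone. Replicate 1 gave this state 38 cells and 221 sterol UMIs against 209 cells and 1846 UMIs in replicate 2, so the call for these genes rests on replicate 2. The other called genes were Stard4, a sterol carrier (1.56 ± 0.32), and Pmvk, phosphomevalonate kinase (1.21 ± 0.22). Nsdhl, which removes methyl groups after lanosterol, was also called (1.15 ± 0.26). Each of them had a ratio of at least 0.71 in both libraries taken singly. Replicate 1, however, counted only 5 UMIs of Stard4, 10 of Pmvk and 5 of Nsdhl, so its ratios are imprecise.

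The fatty acid branch of the Krt24 state was mixed, with 3 of 11 genes higher, 2 lower and a median of 0.21. Scd1, a stearoyl-CoA desaturase, read 23.3 and 20.3 CPM, and changed by 1.29 ± 0.35 (edgeR adjusted p = 0.0068). Fasn, fatty acid synthase, read 30.0 and 19.7 CPM and changed by 1.22 ± 0.32. The replicate 1 levels rest on 7 UMIs of Scd1 and 9 of Fasn. Srebf1 was called higher (0.69 ± 0.25) but its ratio was -0.25 in replicate 1 alone. Elovl5, an elongase of polyunsaturated fatty acids, fell by 0.75 ± 0.25. Fads1, the second desaturase of that route, was counted with 1 and 2 UMIs (3.33 and 1.20 CPM; edgeR adjusted p = 1.6e-05), and Fads2 with 0 UMIs in either library.

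The Fgf5 state showed the opposite pattern for sterol genes and the highest levels of the polyunsaturated desaturases. Of 20 sterol genes 11 were lower and 1 higher, with a median of -0.61, where 13.8% of all genes were lower, 14.8% higher and the median was 0.00. The sterol median was -0.30 in replicate 1 alone and -0.49 in replicate 2 alone. Hmgcs1 read 46.4 and 29.9 CPM (-1.40 ± 0.16, edgeR adjusted p = 5.4e-08), Idi1 16.8 and 15.7 CPM (-1.31 ± 0.26), and Stard4 6.39 and 3.04 CPM (-1.66 ± 0.36). These 3 genes had log2 ratios of -0.75 to -2.19 in the libraries taken singly. The remaining falls were in Hsd17b7, Fdft1, Pmvk, Msmo1, Cyp51, Nsdhl, Srebf2 and Fdps, from -1.04 to -0.61. Ebp alone was higher, at 56.3 and 67.9 CPM (0.65 ± 0.15). Since the mean of the other states contains the Krt24 state, part of each difference is the high level there; the level of Hmgcs1 in the Fgf5 state was also the lowest of the 6 in each library.

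Fads2 was nearly restricted to 2 of the 6 gated states. In non-cycling cells it read 31.6 and 34.5 CPM in the Fgf5 state (79 and 68 UMIs) and 10.2 and 11.3 CPM in the Edn2 state (16 and 14 UMIs). It read 1.34 and 1.5 CPM in the Nppc state and 1.71 and 2.27 CPM in the Wfdc18 state. No UMI was counted in the Krt24 or the Krtdap state, and ungated keratinocytes read 5.19 and 14.5 CPM. Against a floor of 3 counts per library, which covers counting error only, Fads2 in the Fgf5 state was at least 3.16-fold (replicate 1) and 19.2-fold (replicate 2) higher than in the Krt24 state, and at least 5.20-fold and 13.1-fold higher than in the Krtdap state. As read, the Fgf5 and Edn2 levels did not overlap with each other or with those of any other of the 6 states. In replicate 1, however, the floor of the Krt24 state was 10 CPM, close to the Edn2 level of 10.2 CPM. The 0 UMIs there therefore do not separate the Edn2 and Krt24 states in that library. The edgeR adjusted p was 1.3e-12 for the Fgf5 state and 1.2e-05 for the Edn2 state.

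Fads1 followed a similar order with smaller differences. It read 58.7 and 53.2 CPM in the Fgf5 state, 39.5 and 35.4 in the Edn2 state, 15.2 and 25.6 in the Nppc state, 6.07 and 18.4 in the Krtdap state, and 6.85 and 8.34 in the Wfdc18 state. Its log2 fold change was 2.30 ± 0.22 in the Fgf5 state (edgeR adjusted p = 1.2e-09), 1.64 ± 0.26 in the Edn2 state and -1.10 ± 0.36 in the Wfdc18 state. The Nppc levels lay above the Wfdc18 levels in both libraries, and the Krtdap levels overlapped both. Fads1 (chr19:10182888-10196877, plus strand) and Fads2 (chr19:10062765-10101746, minus strand) lie 81141 bases apart in GENCODE gene models of GRCm38. Fads3, 2654 bases from Fads2, is not a member and was looked up after these values were seen. It read 79.1 and 73.5 CPM in the Fgf5 state and 24.2 and 22.5 in the Edn2 state, 0 in both libraries of the Krt24 state, and 46.0 and 13.6 in the Wfdc18 state; its change in the Fgf5 state passed the test (edgeR adjusted p = 1.4e-10). On the other side of Fads1, Fen1 and Tmem258 changed by 0.22 ± 0.33 and 0.08 ± 0.10 in the Fgf5 state, and neither passed.

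**Figure D2:**
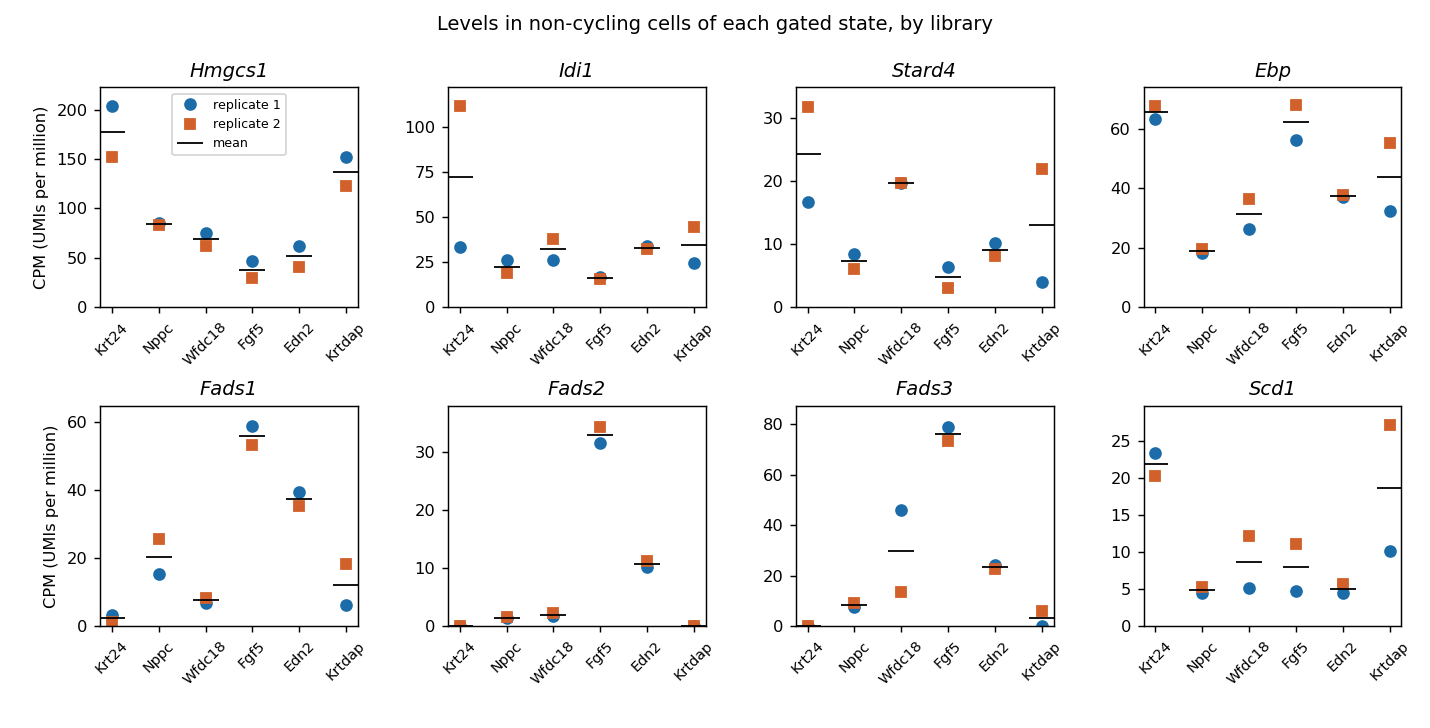
Levels in CPM of 4 sterol genes (upper row), 3 desaturases of the Fads cluster and Scd1 (lower row) in non-cycling cells of the 6 states; circles are replicate 1, squares replicate 2, dashes their mean, and axes start at 0. Fads2 stands at 31.6 and 34.5 CPM in the Fgf5 state, 10.2 and 11.3 in the Edn2 state and at or under 2.27 elsewhere; Hmgcs1 is highest in the Krt24 and Krtdap states.

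Elsewhere in the fatty acid branch of the Fgf5 state, Elovl5 was higher, at 53.1 and 39.5 CPM (0.53 ± 0.16), while Fasn (4.40 and 9.12 CPM, -1.15 ± 0.31) and Acly, ATP citrate lyase (18.8 and 17.7 CPM, -0.68 ± 0.22), were lower. So 3 genes of polyunsaturated fatty acid processing (Fads1, Fads2, Elovl5) rose and 2 genes of the route from citrate to palmitate (Acly, Fasn) fell. Acaca, acetyl-CoA carboxylase of that route, read 5.19 and 9.12 CPM and was not called. Acly had not passed the test for any difference among the states. Elovl5 read 45.2 and 41.0 CPM in the Edn2 state, which overlaps its Fgf5 levels. The median of the branch was -0.29.

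The Wfdc18 state had 8 of 20 sterol genes higher, 4 of them enzymes from squalene onwards, and 0 lower. The median was 0.29, where 12.8% of all genes were higher, 10.2% were lower and the median was 0.01. Sqle read 99.3 and 69.0 CPM (0.85 ± 0.16, edgeR adjusted p = 0.00019), the highest of the 6 states in each library. Sc5d, a sterol desaturase, read 39.6 and 42.4 CPM (0.72 ± 0.16), and Cyp51 39.1 and 38.6 CPM (0.70 ± 0.16). Lss, lanosterol synthase (0.92 ± 0.33), Stard4 (0.86 ± 0.27), Pmvk (0.66 ± 0.18), Srebf2 (0.57 ± 0.16) and Fdps (0.54 ± 0.16) completed the list. The ratios in each library alone were between 0.49 and 1.18 for all 8. Hmgcs1, at 75.3 and 62.1 CPM, did not pass. In the fatty acid branch Srebf1 was higher (27.4 and 27.3 CPM, 0.59 ± 0.20) and Fads1 lower. The sebaceous gland list, a marker list of 10 genes used in no gate, summed to 917 and 837 CPM in this state against 89.1 to 463 CPM in the other 5. Of that list only Mgst1, Dgat2 and Plin2 passed the count filter of the fit, and Mgst1 was higher (3.20 log2). The sum therefore does not describe the list as a whole, and the part of these genes in the member levels was not tested.

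In the Nppc state 5 of 20 sterol genes were lower, 3 of them enzymes of the last steps (Ebp, Sc5d and Dhcr7), and 0 higher. The median was -0.46, while 2.72% of all genes were lower, 12.7% were higher and the median was 0.04. The sterol median was -0.19 in replicate 1 alone and -0.47 in replicate 2 alone. Ebp read 18.3 and 19.6 CPM (-1.13 ± 0.19, edgeR adjusted p = 9.4e-05), the lowest of the 6 states in each library, and Sc5d 17 and 15 CPM (-0.76 ± 0.20). Dhcr7, the reductase of the last step to cholesterol, fell by 0.65 ± 0.21, Fdps by 0.64 ± 0.19 and Cyp51 by 0.62 ± 0.20. Elovl1, an elongase of very long chains, was higher at 51.4 and 48.1 CPM (0.59 ± 0.16), the only fatty acid gene called. The call count fell from 6 to 3 of 31 without the library term, and to 3 with gates read after thinning each cell to 3000 UMIs.

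The Edn2 and Krtdap states had few calls. In the Edn2 state Hmgcs1 (62.4 and 41.0 CPM, -0.84 ± 0.16) and Pmvk (-0.66 ± 0.23) were lower, and Dhcr7 was higher at 65.6 and 53.9 CPM (0.55 ± 0.19), beside the higher Fads1 and Fads2, where 10.0% of all genes were higher and 7.47% lower. In the Krtdap state Hmgcs1 read 152 and 123 CPM (0.89 ± 0.15, edgeR adjusted p = 0.00019) and Scd1 10.1 and 27.1 CPM (1.29 ± 0.35), where 5.55% of all genes were higher and 2.92% lower. The Scd1 level in replicate 1 of the Krtdap state lay under its replicate 2 level in the Wfdc18 state (12.1 CPM), so those states overlap. In the Edn2 state the Pmvk and Dhcr7 calls (edgeR adjusted p = 0.050 and 0.043) were lost with DESeq2 (adjusted p = 0.11 and 0.066), without the library term and under most other settings, and all 5 calls were lost at most 5% mitochondrial UMIs. The Scd1 call in the Krtdap state was lost without the library term (edgeR adjusted p = 0.075) and under 3 other settings.

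In the 4 states that could be tested, cells carrying mitotic transcripts had a higher summed sterol level than non-cycling cells of the same state. A cell was called mitotic with at least 3 of 12 mitotic markers detected, and S phase with fewer mitotic and at least 4 of 12 S-phase markers. Cells with S-phase markers thus stayed in the mitotic gate if they had at least 3 mitotic markers. The Edn2, Fgf5, Wfdc18 and Krtdap states had enough mitotic cells in both libraries (28 to 166). The Krt24 state had 0 mitotic cells in replicate 1 and was not tested. In its replicate 2, with 43 mitotic cells, Hmgcs1 read 152 CPM in non-cycling and 107 in mitotic cells. There Cyp51 went from 46.6 to 50.8 CPM, Idi1 from 111 to 115 and Acat2 from 28.7 to 72.6. The summed sterol branch rose from 703 to 1080 CPM in the Wfdc18 state of replicate 1 and from 760 to 1155 in replicate 2. In the Fgf5 state it went from 500 to 730 and from 477 to 768 CPM, in the Edn2 state from 570 to 698 and from 543 to 956, and in the Krtdap state from 657 to 906 and from 675 to 964. It was therefore higher in mitotic cells in 8 of 8 pairs. The fatty acid branch was between 220 and 312 CPM in the non-cycling sums of these states and between 258 and 373 CPM in the mitotic sums. It was higher in mitotic cells in 6 of 8 pairs, from 220 to 318 CPM in the Krtdap state of replicate 1 and from 254 to 373 CPM in the Edn2 state of replicate 2, and slightly lower in replicate 2 of the Fgf5 and Krtdap states.

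**Figure D3:**
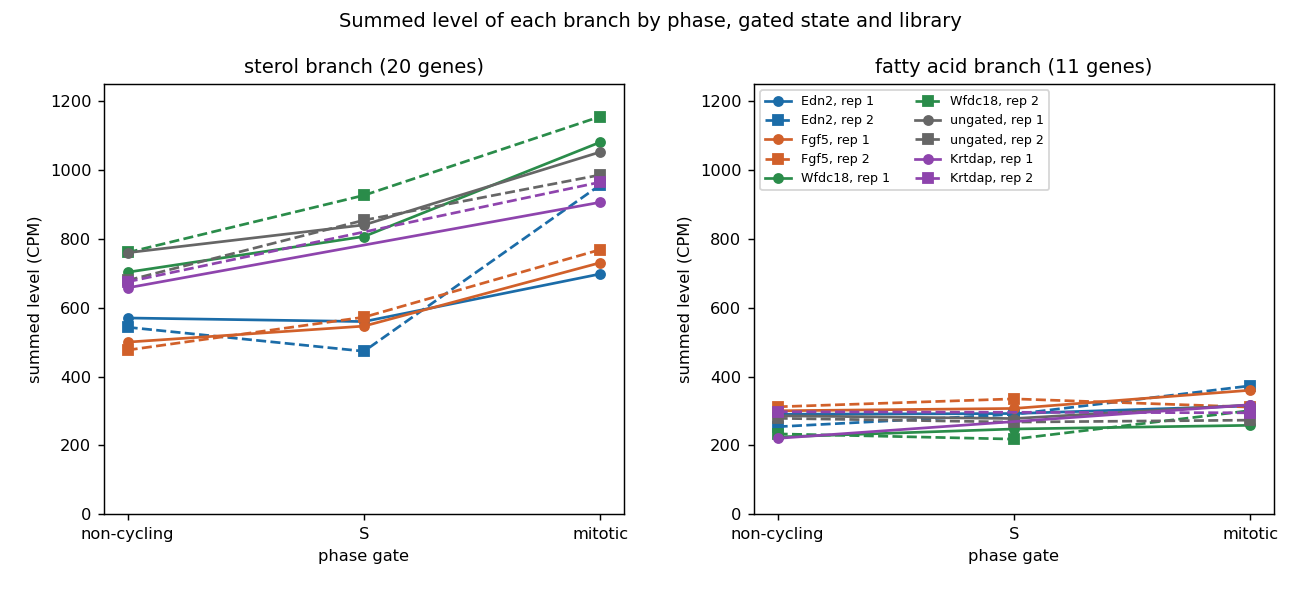
Summed CPM of the 20 sterol genes (left) and the 11 fatty acid genes (right) in non-cycling, S-phase and mitotic cells; colours are states, solid lines with circles replicate 1 and dashed lines with squares replicate 2, and for the Krtdap state, with 6 S-phase cells in replicate 1, the S point is left out. The sterol sums are highest in mitotic cells in every line, for example 1080 and 1155 CPM in the Wfdc18 state, while the fatty acid lines stay between 218 and 373 CPM.

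Gene by gene, averaged over the 4 states, 14 of 20 sterol genes were higher in mitotic cells and 0 lower, with a median log2 fold change of 0.47. Of all genes tested, 13.0% were higher and 13.7% lower, with a median of -0.07. Acat2, which joins acetyl-CoA units at the start of the pathway, read 14.9 and 18.9 CPM in non-cycling Wfdc18 cells and 33.4 and 48.0 in mitotic ones, and its change over the 4 states was 1.04 ± 0.15 (edgeR adjusted p = 2.8e-06). Idi1 went from 26.2 and 37.9 to 82.6 and 80.0 CPM in the same state (1.0 ± 0.15 over the 4 states). Cyp51 went from 39.1 and 38.6 to 72.7 in both libraries (1.02 ± 0.12, edgeR adjusted p = 4.0e-08). Fdps went from 47.5 and 106 to 86.7 and 208 CPM (0.85 ± 0.11). For each of these 4 genes the mitotic and non-cycling levels in that state did not overlap, except Fdps, where the libraries differ. Cyp51 and Fdps also passed within each of the 4 states tested singly, where 5.09% (Edn2), 5.21% (Fgf5), 5.13% (Wfdc18) and 8.23% (Krtdap) of all genes were called higher.

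Smaller rises came from Hsd17b7 (0.87 ± 0.24), Stard4 (0.84 ± 0.21), Lss (0.79 ± 0.28), Insig1 (0.62 ± 0.18), Fdft1 (0.59 ± 0.14), Mvk (0.47 ± 0.17), Srebf2 (0.44 ± 0.12), Pmvk (0.40 ± 0.14), Msmo1 (0.39 ± 0.11) and Hmgcs1 (0.32 ± 0.10). Hmgcs1, the most abundant sterol member, thus changed least among the 14. The other 6 sterol genes did not pass. Ebp had 0.29 ± 0.11 (edgeR adjusted p = 0.053), and Sqle 0.28 ± 0.13, with 0.01 in replicate 1 alone and 0.72 in replicate 2 alone. Nsdhl (0.36 ± 0.17) was also above 0. Mvd had 0.46 ± 0.39, with 0.13 in replicate 1 alone and -0.48 in replicate 2 alone. Sc5d (-0.06 ± 0.12) and Dhcr7 (-0.07 ± 0.13), which act at the end of the pathway, were near 0.

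In the fatty acid branch 1 of 11 genes was higher in mitotic cells and 0 lower, with a median of 0.18. Scd2 read 37.9 and 37.1 CPM in non-cycling and 51.9 and 59.6 CPM in mitotic Wfdc18 cells, and changed by 0.41 ± 0.13 over the 4 states (edgeR adjusted p = 0.019). Fasn (0.30 ± 0.21), Acaca, acetyl-CoA carboxylase (0.27 ± 0.23), Acly (0.07 ± 0.14), Elovl6 (0.27 ± 0.13), Elovl1 (-0.03 ± 0.12), Elovl5 (-0.19 ± 0.12), Fads1 (-0.02 ± 0.17), Scd1 (0.18 ± 0.24) and Srebf1 (-0.29 ± 0.16) did not pass, nor did Fads2, which has few UMIs in 2 of the states. The share of called genes in the branches was not compared by a test.

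Mitotic cells were deeper, with medians of 9631 to 17985 UMIs against 7354 to 10243 in the non-cycling cells of the same 4 states. Restricted to cells of 5000 to 15000 UMIs, 10 sterol genes were called. The count was 8 without the library term, 8 with gates read after thinning, 8 with a state ratio 2 times the next and 7 with a ratio of 3 or more, where fewer states had enough cells. A difference in the mitotic change between the Wfdc18 and Edn2 states was called for 0 of 31 members by edgeR and 0 by DESeq2, with 1 member (Hsd17b7) at an unadjusted p under 0.05; 0.0102% of all genes were called. The mitotic changes of those states were thus not shown to differ, and the standard errors of the differences ranged from 0.29 to 1.14.

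The same contrast was made in keratinocytes that met no state gate, which are other cells of the same libraries (935 and 621 non-cycling, 704 and 471 mitotic); this comparison was added after the cell numbers were seen. There 10 of 20 sterol genes were higher and 0 lower, with a median of 0.49, against 10.2% of all genes higher, 7.79% lower and a median of -0.06. Acat2 (0.99 ± 0.19), Fdps (0.87 ± 0.18), Stard4 (0.78 ± 0.26), Idi1 (0.72 ± 0.22), Fdft1 (0.68 ± 0.18), Mvk (0.68 ± 0.21), Cyp51 (0.52 ± 0.14) and Hmgcs1 (0.50 ± 0.15) were called in both sets of cells. Ebp (0.57 ± 0.15) and Nsdhl (0.57 ± 0.19) were called here and not in the gated states. Msmo1 (-0.10 ± 0.16) and Lss (-0.05 ± 0.25), called in the gated states, were near 0; differences between the 2 sets of cells were not tested. In the fatty acid branch Scd2 was higher (0.54 ± 0.19) and Scd1 lower (-0.73 ± 0.24; 15.6 and 20.9 CPM in non-cycling, 7.35 and 17.1 in mitotic cells).

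**Figure D4:**
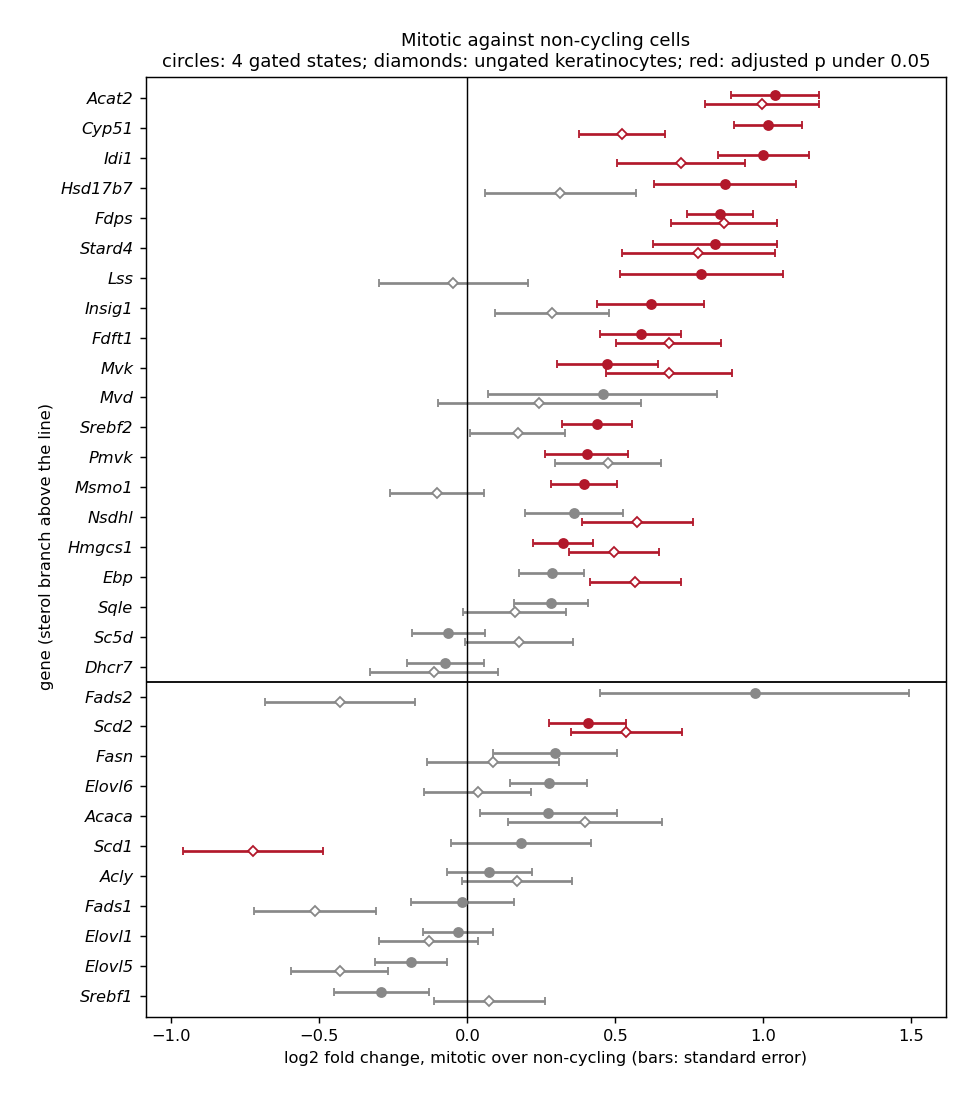
Log2 fold change of each member in mitotic over non-cycling cells with its standard error; filled circles average the Edn2, Fgf5, Wfdc18 and Krtdap states, open diamonds are ungated keratinocytes, and red marks an edgeR adjusted p under 0.05. All 14 sterol genes called in the gated states lie between 0.32 and 1.04, and Scd2 is the fatty acid gene called higher in both sets.

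In cells of the S-phase gate no member passed. Over the Edn2, Fgf5 and Wfdc18 states, 0 of 20 sterol and 0 of 11 fatty acid genes were called by edgeR, and 0 and 0 by DESeq2, while 1.99% of all genes passed in edgeR. At an unadjusted p under 0.05 there were 1 sterol gene, Idi1 (0.52 ± 0.22), and 2 fatty acid genes, Elovl6 (0.34 ± 0.17) and Elovl5 (-0.32 ± 0.15). The median was 0.13 for the sterol branch, 0.03 for the fatty acid branch and -0.04 for all genes. Cyp51 had 0.14 ± 0.17, Acat2 0.27 ± 0.22 and Fdps -0.12 ± 0.16, against 1.02, 1.04 and 0.85 in mitotic cells. With 32 to 79 cells per sum, S-phase changes of the size of the smaller mitotic ones could not be told from 0. A difference between the S and mitotic changes was not tested. As the mitotic gate can hold cells with S-phase markers, these values do not assign the rise to mitosis rather than S phase.

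Upper follicle cells were few. The gate first chosen (at least 3 of Defb6, Krt79, Cst6 and Ly6d and at least 10 UMIs of them) held 8 and 9 non-cycling cells, too few for a fit. A wider gate of at least 2 of the 4 genes, added after these numbers were seen, held 21 and 27. Against the mean of the 6 states, 6 of 20 sterol genes were higher and 0 lower, with a median of 0.51, where 6.69% of all genes were higher, 3.03% lower and the median was -0.03. The sterol median was 0.67 in replicate 1 alone and 0.06 in replicate 2 alone. Hmgcs1 read 146 and 132 CPM (0.88 ± 0.19, edgeR adjusted p = 0.0023), Cyp51 57.0 and 48.7 CPM (1.09 ± 0.26), Nsdhl 28.5 and 28.6 CPM (1.18 ± 0.36), Pmvk 46.3 and 51.6 CPM (0.98 ± 0.31), Ebp 57.0 and 74.5 CPM (0.83 ± 0.25) and Fdps 74.9 and 115 CPM (0.86 ± 0.24). Each of the 6 was higher in both libraries taken singly, by 0.59 to 1.30. These rises are over the mean of the states. Hmgcs1 read more in the Krt24 state (203 and 152 CPM), and the Ebp levels overlapped those of the Fgf5 state (56.3 and 67.9 CPM). In replicate 2 Pmvk and Fdps were under the Krt24 state (60.4 and 185 CPM). Cyp51 and Nsdhl lay above every state in each library, by little over the Krt24 state of replicate 2 (46.6 and 28.1 CPM). Without the filter on low counts 3 of them were called. Sc5d (-1.22 ± 0.44, edgeR adjusted p = 0.078) and Dhcr7 (-1.03 ± 0.42, edgeR adjusted p = 0.12) did not pass, but both were lower in each library taken singly.

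The fatty acid branch had 3 of 11 genes higher in upper follicle cells, but these levels came from few cells. Scd1 read 303 CPM in replicate 1 and 63.0 in replicate 2, against 4.46 to 27.1 CPM in the 6 states (4.37 ± 0.38, edgeR adjusted p = 6.8e-10). In replicate 1, 4 of 21 cells held its 85 UMIs and 1 cell held 49 of them; without that cell the level was 137 CPM. In replicate 2, 8 of 27 cells held 22 UMIs. Elovl6, which extends palmitate to stearate, read 314 and 31.5 CPM (2.42 ± 0.35). One cell held 66 of its 88 UMIs in replicate 1, without which it read 83.4 CPM, and the ratio in replicate 2 alone was -0.03. Srebf1 read 82.0 and 25.8 CPM (1.43 ± 0.34), with 2.26 in replicate 1 alone and 0.31 in replicate 2 alone. So Scd1 was higher in both libraries taken singly (5.38 and 2.45), and the Elovl6 call rested on replicate 1. Fads2 had 0 UMIs in these cells.

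Sebaceous gland genes were present in the same cells and differed in the same direction between the libraries. Plin2, which coats lipid droplets, read 542 and 203 CPM, Mgst1 724 and 335 CPM, and Cidea 42 and 2 UMIs; Far2 and Awat2 had 12 and 6 UMIs in replicate 1 and 0 in replicate 2, and Plin5 had 0 in both. Of the 10 genes of that list, 9 were detected in replicate 1 and 6 in replicate 2, and they summed to 1586 and 559 CPM. The part of sebaceous cells in the Scd1, Elovl6 and Srebf1 levels was not tested. Mitotic upper follicle cells numbered 9 and 8 and entered no test. Among those of replicate 2, the highest cell for Scd1 held 118 of 128 UMIs, and the highest cell for Elovl6 held 58 of 61. Whether they were the same cell was not examined.

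Other genes of the same pathways, listed beside the members, were also counted. Shares of all genes tested that were higher and lower were 13.0% and 13.7% in mitotic cells and 14.8% and 13.8% in the Fgf5 state. They were 12.8% and 10.2% in the Wfdc18 state, 11.7% and 11.2% in the Krt24 state, and 6.69% and 3.03% in upper follicle cells. The sterol counts of the Krt24 state, and of genes lower in mitotic and in Wfdc18 cells, were near these shares. Among 16 tested sterol genes, mitotic cells were higher for 6 and lower for 2. Lbr, a sterol reductase that also binds the nuclear lamina, rose by 1.41 ± 0.10 and Tmem97 by 1.51 ± 0.16. Abca1, which exports cholesterol, fell by 1.0 ± 0.30. Among 15 tested fatty acid genes, 3 rose and 1 fell. In the Fgf5 state Soat1, which esterifies cholesterol, read 41.2 and 74.0 CPM against 0.734 to 31.4 CPM in the other states (3.48 ± 0.24), the reverse of most sterol synthesis members there; in all, 2 of the 16 sterol genes rose and 4 fell, among them Abca1 (-2.23 ± 0.40), Mylip, a ubiquitin ligase (-2.31 ± 0.46), and Npc1 (-1.16 ± 0.22). In the Wfdc18 state 4 rose and 2 fell: Insig2 read 496 and 437 CPM (2.08 ± 0.18), and Soat1 fell by 2.84 ± 0.52. In the Krt24 state 2 rose and 2 fell: Mylip read 23.3 and 29.9 CPM (2.36 ± 0.34), and Insig2 fell by 2.28 ± 0.32. In upper follicle cells 6 of 16 sterol and 6 of 15 fatty acid genes rose, with Acsl4 (2.88 ± 0.42) and Elovl7 (3.12 ± 0.48) higher in both libraries taken singly. Soat1 (3.21 ± 0.60) was lower in replicate 2 alone, with a ratio of -1.09.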

How the data were processed

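UMI counts per gene and cell barcode were deposited by the authors without normalization; the submitters' processing notes name Cell Ranger 3.1.0, Seurat 3.1 and the build mm10. Members, lists and gates were chosen with earlier results of these data known. Barcodes under 1000 genes or above 10% mitochondrial UMIs were left out. Keratinocytes had at least 500 CPM of Krt5 plus Krt14 and few markers of other cell types. A state needed at least 2 of its markers detected. Doublets were scored with Scrublet (scanpy 1.11.5) and removed only in an alternative, since the automatic threshold called 0.

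Counts were summed per library, state and phase where both libraries had at least 20 cells: 26 sums, 14 coefficients, 12 residual degrees of freedom and 9800 genes (28 sums and 9903 genes with upper follicle cells). edgeR 4.0.16 in R 4.3.3 (quasi-likelihood, TMM, two-sided, Benjamini-Hochberg, 0.05) was fitted with library as a block, as all states of a number come from 1 library. Sums of 1 library are not independent animals. Ratios of single libraries are of CPM with 0.5 UMI added. All genes passing in a comparison are named for members, and up to 6 per comparison for other genes. DESeq2 1.42.0 and the alternatives below were compared. The test was checked on simulated counts. Some genes of the further pathway lists are counted but not reported singly here.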

Additional observations from a re-analysis of the deposited data

How the results depend on the processing

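With the library term left out (no replicate block), mitotic calls were 8 sterol and 0 fatty acid genes, and state calls were 3 (Nppc), 3 (Edn2) and 1 (Krtdap); with the block these were 14, 1, 6, 5 and 2. A state ratio of 3 gave 7 and 0 in mitotic cells, 1 sterol gene in S phase and 1 in the Krtdap state. A ratio 2 times the next gave 8 and 0 in mitotic cells, 10 (Nppc), 3 (Edn2) and 1 (Krtdap). Gates read after thinning gave 8 mitotic sterol genes and 3 in the Nppc state. At most 5% mitochondrial UMIs left 4 states and gave 3 fatty acid genes that differ among states, 6 calls in the Fgf5 state and 0 in the Edn2 state, and Nsdhl in the Fgf5 state turned to 0.10. The Edn2 state had 3 calls with DESeq2, with cells of 5000 to 15000 UMIs, with the stricter cycling gate and without high doublet scores, and the Krtdap state 1 with the stricter cycling gate. Without the count filter, upper follicle cells had 3 sterol calls. The cause of these changes was not tested.

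Of 80 named fold changes, 80 kept their direction under RLE scaling, DESeq2 and no block, and 52 lost the call in at least 1 refit: 26 of 80 with no block, 14 of 80 with DESeq2, 24 of 71 with gates read after thinning and 26 of 53 at most 5% mitochondrial UMIs. Taken from 1 library at a time, with no test, medians of the fatty acid branch were -0.48 (without replicate 1) and 0.62 (without replicate 2) in upper follicle cells, 0.37 and -0.25 in the Krt24 state, and -0.33 and -0.23 in the Nppc state. In the same order Elovl6 in upper follicle cells gave -0.029 and 3.34, and in the Krt24 state Fdft1 gave 0.79 and -0.18 and Srebf1 0.81 and -0.25. Upper follicle cells were too few under thinning, the depth range, the stricter cycling gate and the lower mitochondrial limit, S-phase cells under thinning, and the Krt24 and Krtdap states at 5% mitochondrial UMIs; these were not run. A count of calls from 1 library has no residual degrees of freedom.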

Other observations

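Cells gated as inner root sheath by Krt25, Krt27, Krt28 and Krt71 met the mitotic gate in 22 of 27 cells of replicate 1 and 13 of 14 of replicate 2. That gate counts detected markers and so depends on depth, and these mitotic cells had medians of 25306 and 27751 UMIs, against 9631 to 17985 in the mitotic cells of the Edn2, Fgf5, Wfdc18 and Krtdap states. In the mitotic inner root sheath cells the sterol branch summed to 596 and 513 CPM and the fatty acid branch to 288 and 289 CPM. The sterol sums were under those of mitotic cells of those 4 states (698 to 1155 CPM). Too few cells were non-cycling for a comparison, and no test was made.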
